A study of Mus musculus with 9 samples.

Results

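The macrophage colony-stimulating factor receptor gene Csf1r was followed together with 8 further genes of the macrophage lineage in CD11b+ cells of mouse liver: the transcription factor genes Spi1, Cebpa, Cebpb, Maf, Nr4a1, Runx1 and Irf5, and Adgre1, which encodes the surface protein F4/80. The 9 genes were chosen by name, with no threshold on their values. All 9 were found among the 45777 genes of the tables, with 1 row per sample each, and all 9 were among the 13820 genes tested after a filter on low values.

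The samples were bulk RNA-seq libraries of CD11b+ cells (cells that carry the integrin subunit encoded by Itgam, a mark of myeloid cells) from livers injured with acetaminophen (APAP), a drug that kills hepatocytes at high dose. Every mouse in the 3 groups had received APAP into the peritoneum, and livers were taken 48 hours later. The PBS group received PBS (buffered saline), the HEK-EV group received SIRP-EV (extracellular vesicles) made by HEK cells (a line of human embryonic kidney origin), and the MSC-EV group received SIRP-EV made by MSC. Vesicles were given into a vein 8 hours after APAP, and no group without APAP was analysed here. The labels do not spell out SIRP or MSC and give no strain, age, sex or dose. Each group had 3 samples, and the labels do not say whether these came from separate animals, so the p-values measure only the spread between these samples.

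CSF1R is the receptor through which CSF1 and IL-34 keep monocytes and macrophages alive and dividing. Its gene is switched on in the myeloid lineage by PU.1 (the product of Spi1), together with C/EBP and RUNX proteins, and PU.1 then acts with further factors to set what kind of macrophage a cell becomes. C/EBPα drives the early commitment of myeloid progenitors, C/EBPβ and NR4A1 act in monocytes, in particular those with little Ly6C on their surface, MAF restrains division in mature macrophages, and IRF5 carries Toll-like receptor signals to inflammatory cytokine genes.

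Levels are given as TPM, transcripts scaled for gene length and to a fixed total, so that genes may be compared within a sample. Group values are the mean ± SD over n = 3 samples. Differences are log2 fold changes of TPM + 1 from limma, with the standard error (SE), a 95% confidence interval and a Benjamini-Hochberg adjusted p over all genes tested, and a gene was called at an adjusted p under 0.05.

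In the MSC-EV samples Nr4a1, Cebpb and Irf5 were lower than in the PBS samples, and Nr4a1 and Irf5 were also lower than in the HEK-EV samples. Cebpa was higher than in the HEK-EV samples. The receptor Csf1r, F4/80 (Adgre1) and Maf were not called in any of the 3 comparisons, and no gene was called between HEK-EV and PBS. Of the 9 genes, 3 were called lower and 0 higher in MSC-EV against PBS, where 5.11% of all genes tested were called (3.25% lower and 1.86% higher). In MSC-EV against HEK-EV, 1 was called higher and 2 lower, beside 5.91% of all genes (1.51% higher and 4.4% lower). On FPKM the counts were 1 higher (Cebpa) and 1 lower (Nr4a1) against PBS, and against HEK-EV they were 1 higher (Cebpa) and 0 lower both on FPKM and with median-of-ratios scaling. Between HEK-EV and PBS 0 of the 9 genes and 0% of all genes were called in limma, with 1 of the 9 and 495 of all genes at an unadjusted p under 0.05. All 3 comparisons share samples, so a gene that moved in both MSC-EV comparisons is 1 observation on the same MSC-EV samples.

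**Figure D1:**
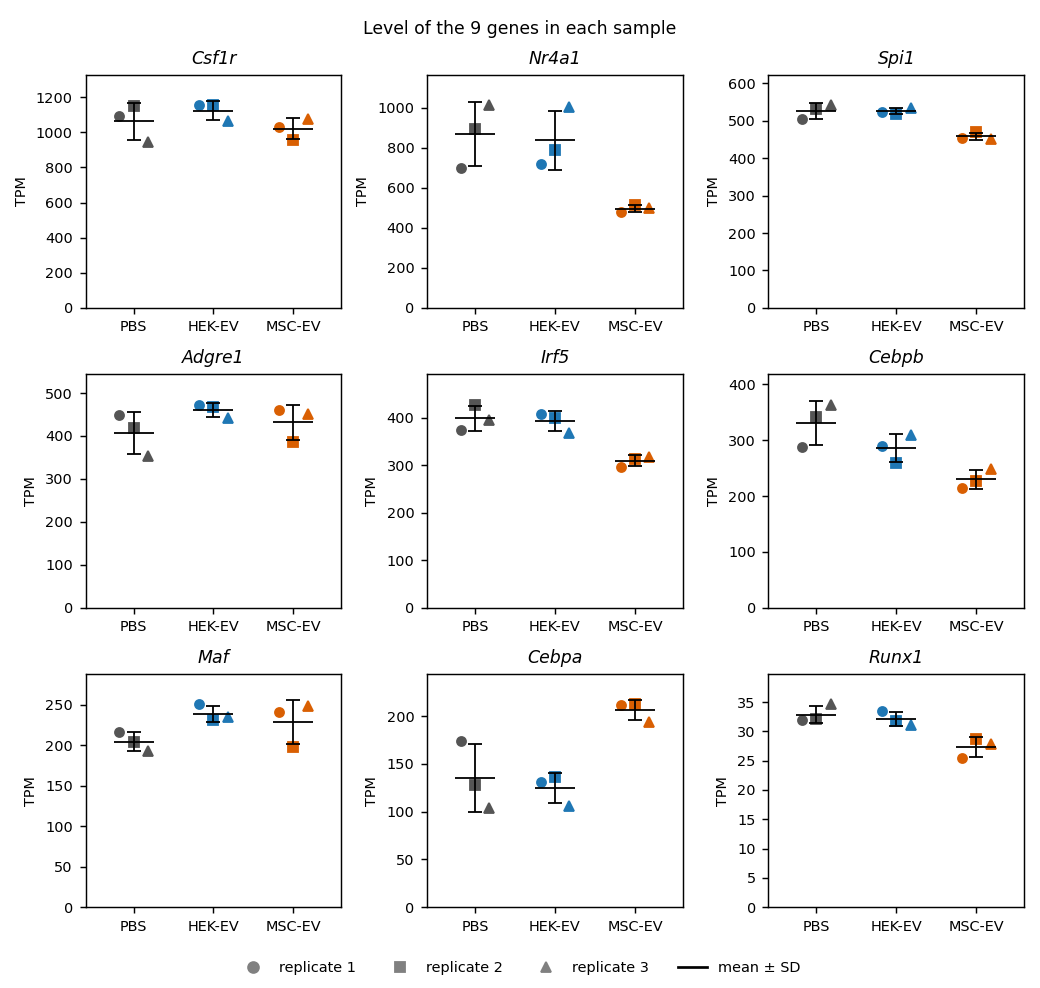
TPM of each of the 9 genes (vertical axes, from 0) by group (horizontal axes), with 1 point per sample, a mean bar and SD whiskers. Nr4a1 lay between 478 and 512 TPM in MSC-EV and at 699 TPM or above in the other samples, whereas the Csf1r groups overlapped.

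Csf1r was the most abundant of the 9 genes. It measured 1095, 1150.2 and 945 TPM in PBS replicates 1, 2 and 3, 1155, 1156 and 1063 TPM in the HEK-EV replicates, and 1029, 958 and 1075 TPM in the MSC-EV replicates. The 3 groups overlapped, and the lowest and the highest sample (PBS replicate 3 and HEK-EV replicate 2) were 1.22-fold apart. The mean was 1064 ± 106 TPM in PBS, 1125 ± 53.7 TPM in HEK-EV and 1021 ± 59.3 TPM in MSC-EV. In MSC-EV against PBS the log2 fold change was -0.06 (SE 0.0833, interval -0.24 to 0.13, adjusted p = 0.75). Against HEK-EV it was -0.14 (interval -0.33 to 0.05, adjusted p = 0.355). Written as folds of TPM + 1, the interval against PBS ran from 0.845 to 1.10.

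Adgre1, whose product F4/80 is the classical surface mark of mouse tissue macrophages, was likewise not called. Its levels were 449, 418 and 354 TPM in PBS, 473, 467 and 442 TPM in HEK-EV, and 460.3, 386 and 451 TPM in MSC-EV. The lowest value was again that of PBS replicate 3, and the MSC-EV samples spanned most of the range of the other groups. The difference between MSC-EV and PBS was 0.09 on the log2 scale (SE 0.0965, interval -0.13 to 0.31, adjusted p = 0.641). Against HEK-EV it was -0.10 (interval -0.31 to 0.12, adjusted p = 0.613).

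Other genes of CSF1R signalling were read from 2 further lists, the first of ligands and sister receptors. Of the 12 ligands and sister cytokine receptors, 9 passed the filter, and Csf1, the main ligand of CSF1R, measured 39.5 ± 10.1 TPM in PBS, 52.7 ± 8.09 TPM in HEK-EV and 44.7 ± 10.9 TPM in MSC-EV. Il34, the second ligand, stayed under the filter with means below that of Csf1 in every group. None of the 9 was called against PBS, and 2 were lower in MSC-EV than in HEK-EV: Csf2rb, the shared β chain of the GM-CSF receptor (-0.33, adjusted p = 0.0283), and Csf3r, the G-CSF receptor of neutrophils (-0.35, adjusted p = 0.0402). Both were above PBS in every HEK-EV sample (0.24 for Csf2rb and 0.33 for Csf3r, adjusted p = 0.999), while their MSC-EV differences from PBS were -0.09 and -0.02. The median log2 difference of the list was -0.02 against PBS and -0.19 against HEK-EV, beside 0.01 and -0.02 over all genes.

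Within the cell, the CSF1R signal runs through Src family kinases, adaptors and phosphatases. Of 24 genes listed for this step, 8 were lower and 0 higher in MSC-EV than in PBS, and 9 lower and 0 higher than in HEK-EV. Among them were Src family kinase genes: Fyn fell by 0.58 on the log2 scale against PBS (46.7 ± 4.47 to 30.9 ± 3.20 TPM, adjusted p = 0.0186). Fgr fell by 0.58 (adjusted p = 0.0238), from 242 ± 32.6 to 162 ± 11.9 TPM. Stat3, a transcription factor gene downstream of many cytokine receptors, fell by 0.35 (adjusted p = 0.0406). The median of the list was -0.15 against PBS and -0.18 against HEK-EV.

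Spi1 encodes PU.1, the ETS factor without which macrophages do not form. It measured 504, 532 and 542 TPM in PBS, 524, 519 and 535 TPM in HEK-EV, and 454, 469 and 452 TPM in MSC-EV. All MSC-EV samples lay below every PBS and HEK-EV sample, with a span over the 9 samples of 1.20-fold, the narrowest of the 9 genes. The mean was 526 ± 20.1 TPM in PBS, 526 ± 8.57 TPM in HEK-EV and 459 ± 9.31 TPM in MSC-EV. The log2 difference of -0.20 (SE 0.0497, interval -0.31 to -0.09) missed the threshold against PBS (adjusted p = 0.0546). Against HEK-EV it was also -0.20 and missed it narrowly (adjusted p = 0.0501). HEK-EV and PBS differed by 0.00 (interval -0.11 to 0.11).

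Runx1, a partner of PU.1 at myeloid enhancers, was the least abundant of the 9 genes. It measured 31.9, 32.1 and 34.6 TPM in PBS, 33.5, 31.7 and 31.1 TPM in HEK-EV, and 25.4, 28.7 and 27.9 TPM in MSC-EV. As with Spi1, the MSC-EV samples lay below all the others without passing the test. The log2 difference was -0.26 against PBS (SE 0.0676, interval -0.41 to -0.11, adjusted p = 0.059) and -0.23 against HEK-EV (adjusted p = 0.0798). Both other RUNX genes, which were taken as relatives after their values were seen, did fall. Runx3 fell by 0.65 against PBS (28.2 ± 2.08 to 17.8 ± 2.59 TPM, adjusted p = 0.0213). Runx2 fell by 0.54 (12.96 ± 1.14 to 8.58 ± 0.821 TPM, adjusted p = 0.0231). Cbfb, the common partner subunit of all RUNX proteins, measured 115 ± 4.53 TPM in PBS and 108 ± 7.62 TPM in MSC-EV (-0.10, adjusted p = 0.435).

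Cebpa encodes C/EBPα, and in both MSC-EV comparisons its difference had the opposite sign to that of Cebpb, though in neither were both genes called. In HEK-EV against PBS both were below 0 (-0.09 for Cebpa and -0.21 for Cebpb). Cebpa measured 174, 128 and 104 TPM in PBS, 131, 136 and 106 TPM in HEK-EV, and 212, 212 and 194 TPM in MSC-EV. Every MSC-EV sample was above every other sample, and PBS replicate 1 was the nearest to them. The mean was 135 ± 35.7 TPM in PBS, 124 ± 16.0 TPM in HEK-EV and 206 ± 10.5 TPM in MSC-EV. Cebpa was higher in MSC-EV than in HEK-EV by 0.73 on the log2 scale (SE 0.165, interval 0.36 to 1.10, adjusted p = 0.0373), a ratio of means of 1.65. Against PBS the difference was 0.63 (interval 0.26 to 1.01) with an adjusted p of 0.059.

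Cebpb encodes C/EBPβ, which is induced by inflammatory signals and is needed for the survival of Ly6C-low monocytes. Its levels were 288, 342 and 364 TPM in PBS, 289, 259 and 309 TPM in HEK-EV, and 214, 226 and 249.1 TPM in MSC-EV. The MSC-EV samples were the lowest, PBS and HEK-EV overlapped, and PBS replicate 1 was again the PBS sample nearest to MSC-EV. Cebpb fell by 0.52 on the log2 scale in MSC-EV against PBS (SE 0.1001, interval -0.75 to -0.30, adjusted p = 0.0273), from 331 ± 38.9 to 229.8 ± 17.7 TPM. Against HEK-EV (286 ± 24.9 TPM) the difference of -0.31 (interval -0.54 to -0.09) was not called (adjusted p = 0.0979).

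The ratio of Cebpb to Cebpa, which was chosen after the values were seen and was not tested, was 1.65, 2.68 and 3.499 in the PBS samples, 2.20, 1.91 and 2.91 in HEK-EV, and 1.01, 1.07 and 1.29 in MSC-EV. Cebpb exceeded Cebpa in all 9 samples, and the 3 lowest ratios were those of MSC-EV. Among the other C/EBP genes, taken as relatives in the same way, Cebpd was lower in MSC-EV than in HEK-EV by -0.45 (adjusted p = 0.0267) and was not called against PBS (-0.29, adjusted p = 0.0872). Cebpe, a factor of late granulocyte maturation, measured 4.43 ± 1.74 TPM in PBS, 4.63 ± 1.44 TPM in HEK-EV and 2.22 ± 0.425 TPM in MSC-EV and was not called (-0.71 against PBS, adjusted p = 0.111, and -0.78 against HEK-EV, adjusted p = 0.0844). Cebpg, a family member that lacks an activation domain, measured 43.6 ± 6.64 TPM in PBS and 52.7 ± 3.55 TPM in MSC-EV (0.28, adjusted p = 0.231).

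The stretches of 250 bases before the start sites of Cebpa and Cebpb are shown because the differences of the pair had opposite signs in both MSC-EV comparisons. They are from RefSeq (GRCm38.p6), read 5′ to 3′ on the plus strand that carries both genes, at chr7:35119043-35119292 and chr2:167688665-167688914. Capitals mark the matches to any of 8 motifs searched on both strands.
Cebpa: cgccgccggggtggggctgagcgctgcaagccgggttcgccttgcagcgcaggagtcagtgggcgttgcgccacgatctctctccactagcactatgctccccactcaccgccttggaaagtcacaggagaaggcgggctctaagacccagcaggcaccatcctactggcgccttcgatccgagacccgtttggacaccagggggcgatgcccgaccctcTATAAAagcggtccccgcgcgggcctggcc
Cebpb: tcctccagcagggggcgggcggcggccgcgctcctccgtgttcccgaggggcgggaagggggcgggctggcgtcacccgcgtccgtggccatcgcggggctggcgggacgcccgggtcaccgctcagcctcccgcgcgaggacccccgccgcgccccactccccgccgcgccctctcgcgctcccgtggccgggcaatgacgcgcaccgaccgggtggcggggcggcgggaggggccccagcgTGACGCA
Cebpa held a TATA box (TATAAA) 30 bases before its start, as did 12.4% of the 32851 promoters in the table at any place in the same length. In Cebpb a CRE-like match (TGCGTCA, here on the reverse strand, written TGACGCA) lay 7 bases before the start, and 1.75% of all promoters held at least 1. The Cebpb stretch was 81.6% G and C and that of Cebpa 66.4%, beside a median of 52.4% over all promoters.

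Nr4a1 encodes the orphan nuclear receptor NUR77, an immediate early gene product and the factor that Ly6C-low monocytes depend on. It measured 699, 894 and 1015 TPM in PBS, 721, 788 and 1005 TPM in HEK-EV, and 478, 512 and 501 TPM in MSC-EV. The MSC-EV samples lay close together below all 6 others, while PBS and HEK-EV samples overlapped and spread widely. The mean was 869 ± 159.6 TPM in PBS, 838 ± 149 TPM in HEK-EV and 497 ± 17.4 TPM in MSC-EV, so that the mean fell by 42.8% against PBS and by 40.7% against HEK-EV. Nr4a1 fell by 0.79 on the log2 scale against PBS (SE 0.147, interval -1.12 to -0.46, adjusted p = 0.026). It fell by 0.74 against HEK-EV (interval -1.07 to -0.41, adjusted p = 0.0269). No other gene of the 9 fell as far.

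Both relatives of Nr4a1, named after their values were seen, went apart from each other. Nr4a2 fell by 0.59 on the log2 scale in MSC-EV against PBS (9.11 ± 1.38 to 5.70 ± 0.529 TPM, adjusted p = 0.0403). Nr4a3, which has the same DNA-binding domain fold and is induced by the same kinds of signal, rose by 1.16 in MSC-EV (13.8 ± 2.38 to 32.0 ± 4.64 TPM, adjusted p = 0.0218) and was also higher than in HEK-EV (0.91, adjusted p = 0.0311). In absolute terms Nr4a1 remained the most abundant NR4A transcript in every group.

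The Nr4a1 promoter is printed because it carries a repeated motif, at chr15:101266596-101266845 on the plus strand (RefSeq, GRCm38.p6, 5′ to 3′), with the CRE-like matches (TGCGTCA) in capitals.
Nr4a1: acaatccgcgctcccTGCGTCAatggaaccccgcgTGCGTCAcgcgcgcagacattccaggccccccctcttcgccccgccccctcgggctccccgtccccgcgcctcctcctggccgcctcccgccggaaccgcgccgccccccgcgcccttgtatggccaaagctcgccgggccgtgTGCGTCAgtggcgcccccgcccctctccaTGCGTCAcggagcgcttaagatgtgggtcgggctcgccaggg
This stretch precedes a RefSeq transcript start that lies inside the Nr4a1 gene as the files bound it (chr15:101253902-101274795). The 4 matches lay 235, 215, 71 and 42 bases before that start, all on the plus strand. Of 32851 promoters of this length 574 held the motif, and the Nr4a1 stretch was the only 1 with 3 or more matches. The motif was added after the Nr4a1 sequence had been read, and a match is a run of letters, not a measured binding site. Of the other motifs searched, PU.1 (GAGGAA, in 23.3% of all promoters) matched once in the second of the Runx1 promoters. C/EBP (TTNNGCAA, 9.56%), RUNX (TGTGGT, 14.0%), the NR4A monomer site NBRE (AAAGGTCA, 1.34%), AP-1 (TGANTCA, 6.75%) and IRF (GAAA repeated after any 2 bases, 2.98%) had no match in the promoters of Cebpa, Cebpb, Nr4a1, Runx1 or Irf5, the 5 of the 9 genes whose promoters were searched. Promoters on the chromosome of Csf1r were left out of the search for the 9 genes, though not out of the 32851.

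Irf5, the interferon regulatory factor tied to inflammatory macrophage activation, measured 376, 428 and 395 TPM in PBS, 409, 401 and 369 TPM in HEK-EV, and 297, 314 and 318 TPM in MSC-EV. The MSC-EV samples were below all the others, and PBS and HEK-EV overlapped. Irf5 fell by 0.37 on the log2 scale against PBS (SE 0.0658, interval -0.51 to -0.22, adjusted p = 0.0251), from 399.7 ± 26.5 to 309.8 ± 11.5 TPM. It fell by 0.34 against HEK-EV (393 ± 21.2 TPM, interval -0.49 to -0.19, adjusted p = 0.0261). This was the smallest adjusted p among the 9 genes in both comparisons. The end of Irf5 overlaps Tnpo3 on the opposite strand, which measured 39.7 to 48.9 TPM, and whether the counting used strand is not given in the sources used here.

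IRF5 is activated through Toll-like receptor adaptors and the kinase IKKβ, encoded by Ikbkb. Of 10 genes listed for this route, 1 was lower in MSC-EV than in PBS and 3 were lower than in HEK-EV. Ikbkb fell by 0.34 on the log2 scale against PBS (101 ± 2.88 to 79.8 ± 4.37 TPM, adjusted p = 0.0273) and by 0.34 against HEK-EV (adjusted p = 0.0248). Against HEK-EV Myd88, the shared adaptor, fell by 0.55 (adjusted p = 0.0300) and Irak4, its kinase partner, by 0.26 (adjusted p = 0.0283). Cytokine genes associated with IRF5 gave no calls: of 10 listed, 6 passed the filter and 0 were called in any comparison. Il23a measured 3.89 ± 0.959 TPM in PBS and 5.93 ± 0.549 TPM in MSC-EV (0.52, adjusted p = 0.0644), and Il1b 1674 ± 434 TPM in PBS, 2476 ± 422 TPM in HEK-EV and 1699.6 ± 189.9 TPM in MSC-EV. The 10 genes summed to 1436 to 2302 TPM in PBS, 2353 to 3135 TPM in HEK-EV and 1614 to 2093 TPM in MSC-EV. The HEK-EV sums thus lay above both other groups, and Il1b made up most of these sums. In MSC-EV against HEK-EV 4 of the 6 genes had an unadjusted p under 0.05 in limma. The 6 genes shared no direction there: 3 were above 0 and 3 below 0, with a median of -0.0015.

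Maf, which helps hold mature macrophages out of the cell cycle, was the member in which HEK-EV stood apart from PBS. It measured 216, 204 and 193 TPM in PBS, 251, 231 and 234 TPM in HEK-EV, and 241, 198 and 248 TPM in MSC-EV. All HEK-EV samples were above all PBS samples, and MSC-EV overlapped both, with MSC-EV replicate 2 low. The HEK-EV difference from PBS was 0.22 on the log2 scale (SE 0.0873, interval 0.03 to 0.42, unadjusted p = 0.0293 in limma), which did not pass after adjustment (adjusted p = 0.999). In MSC-EV the difference from PBS was 0.16 (interval -0.04 to 0.36, adjusted p = 0.318).

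**Figure D2:**
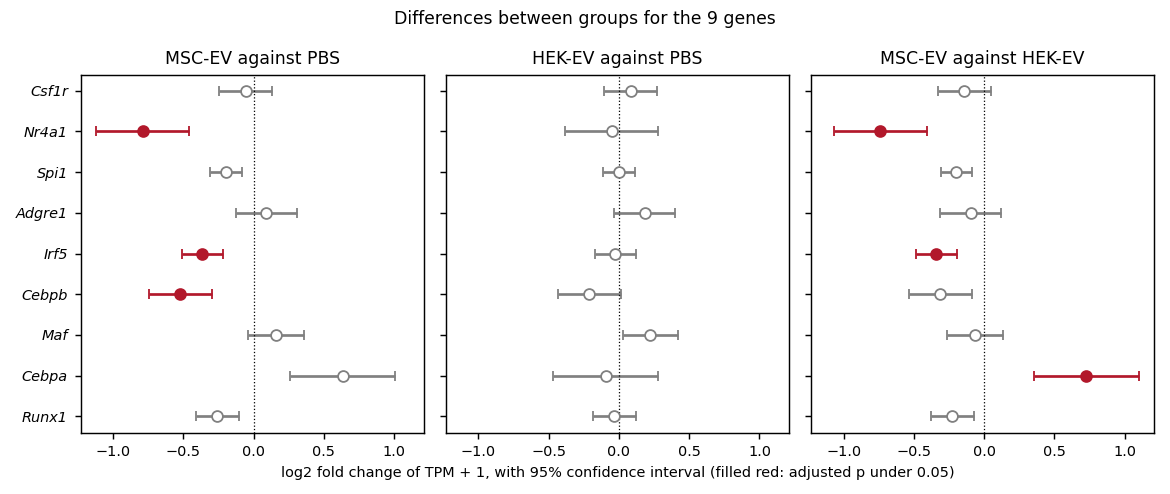
Log2 fold change of TPM + 1 (horizontal axes) of the 9 genes in the 3 comparisons (panels), with points for the limma estimate and bars for the 95% confidence interval, filled red where the adjusted p was under 0.05. In MSC-EV against PBS the filled points are Nr4a1 (-0.79), Cebpb (-0.52) and Irf5 (-0.37), and between HEK-EV and PBS none is filled.

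Read by overlap alone, 6 of the 9 genes had no overlap between MSC-EV and PBS samples, with Cebpa higher and Spi1, Cebpb, Nr4a1, Runx1 and Irf5 lower, where 26% of all genes tested did not overlap (11.2% higher and 14.9% lower). Those 6 genes also had no overlap between MSC-EV and HEK-EV, beside 30.1% of all genes (12.6% higher and 17.5% lower). Between HEK-EV and PBS only Maf did not overlap, with HEK-EV higher, beside 7.81% of all genes (5.51% higher and 2.29% lower). The median log2 difference of the 9 genes was -0.20 in MSC-EV against PBS and -0.20 against HEK-EV, where the median of all genes was 0.01 and -0.02, and it was -0.02 in HEK-EV against PBS, where that of all genes was 0.03.

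Ordered by mean TPM over all samples the genes ran Csf1r, Nr4a1, Spi1, Adgre1, Irf5, Cebpb, Maf, Cebpa and Runx1. Nr4a1 exceeded Spi1, Irf5 exceeded Cebpb and Cebpa exceeded Runx1 in all 9 samples. Csf1r exceeded Nr4a1 in 8 of 9 samples, the exception being PBS replicate 3. Spi1 against Adgre1, Cebpb against Maf and Maf against Cebpa also held in 8 of 9, and Adgre1 against Irf5 in 7 of 9. The sample ranges of neighbours overlapped except for Cebpa and Runx1. The order is therefore loose except in the last place, where the Runx1 samples lay below those of all the other genes. Between the lowest and the highest sample Nr4a1 varied 2.12-fold, Cebpa 2.04-fold, Cebpb 1.70-fold and Irf5 1.44-fold, and the other 5 genes between 1.20-fold and 1.36-fold.

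Set against Csf1r within the same sample, Nr4a1 stood at 0.830 ± 0.223 of the receptor's TPM in PBS, 0.750 ± 0.172 in HEK-EV and 0.488 ± 0.0403 in MSC-EV. Irf5 stood at 0.378 ± 0.0381, 0.349 ± 0.00412 and 0.304 ± 0.0212 of it, and Cebpa at 0.127 ± 0.0280, 0.110 ± 0.00922 and 0.202 ± 0.0209. For these 3 ratios the MSC-EV samples overlapped neither other group. Cebpb stood at 0.315 ± 0.0629, 0.255 ± 0.0334 and 0.225 ± 0.0150 of Csf1r, with MSC-EV below PBS and overlapping HEK-EV. Spi1 and Runx1 relative to Csf1r overlapped between all groups. These ratios were chosen after the values were seen and are given without a test.

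**Figure D3:**
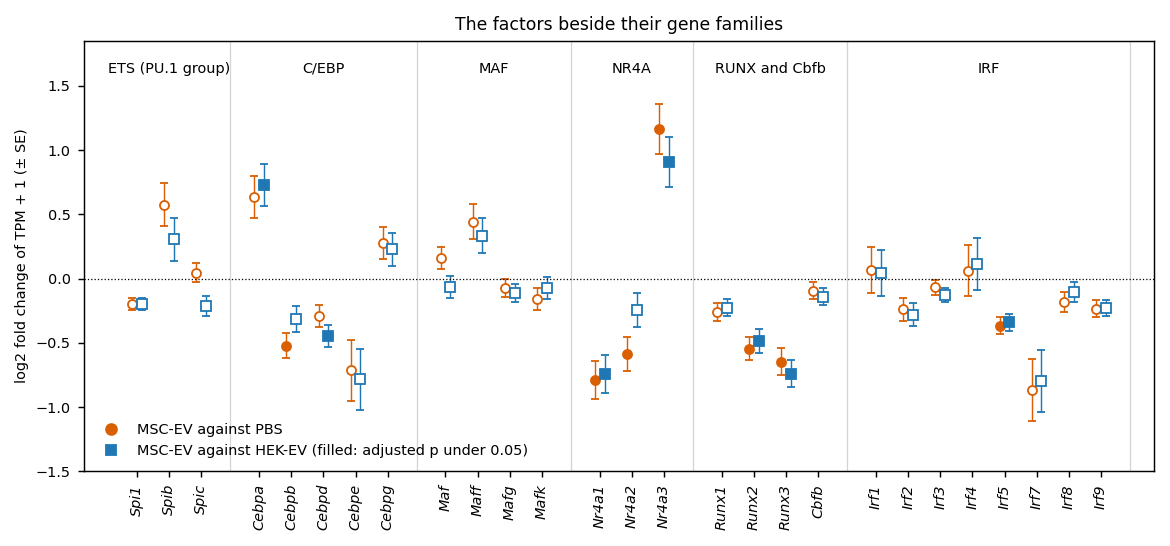
Log2 fold change of TPM + 1 with SE (vertical axis) of the factor genes and their relatives (horizontal axis, by family) in MSC-EV against PBS (circles) and MSC-EV against HEK-EV (squares), filled where the adjusted p was under 0.05. Nr4a3 lies above 0 (1.16 against PBS) while Nr4a1 and Nr4a2 lie below it, and Runx2 and Runx3 are filled while Runx1 (-0.26) is open.

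Over a wider list of 48 other myeloid transcription factor genes, of which 45 passed the filter, 2 were higher and 8 lower in MSC-EV than in PBS, and 2 higher and 8 lower than in HEK-EV. Klf4, a monocyte factor and immediate early gene, fell by 1.21 on the log2 scale against PBS (105 ± 4.16 to 45.3 ± 7.25 TPM, adjusted p = 0.00486). In HEK-EV it measured 69.3 ± 1.87 TPM, with every sample below every PBS sample, a difference that did not pass (-0.60, adjusted p = 0.944). Klf2, which restrains myeloid activation, fell by 0.74 (adjusted p = 0.0187). Pou2f2, found with Nr4a1 in Ly6C-low monocytes, fell by 0.72 (49.0 ± 4.91 to 29.4 ± 4.21 TPM, adjusted p = 0.0186). The list's median was -0.10 against PBS and -0.13 against HEK-EV.

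Lists of monocyte genes and of immediate early genes, which hold Nr4a1 itself among the latter, gave calls in part. Of 12 genes of Ly6C-low monocytes, 7 were lower and 1 higher in MSC-EV than in PBS, and the same counts held against HEK-EV. Spn (CD43) fell by 1.02 against PBS (adjusted p = 0.0153), Treml4 by 0.87 (adjusted p = 0.0187) and Itgal, the integrin subunit CD11a, by 0.52 (adjusted p = 0.0217). The list's summed level was 2895 to 3214 TPM in PBS, 2827 to 3256 TPM in HEK-EV and 2394 to 2730.3 TPM in MSC-EV. Of 12 genes of Ly6C-high monocytes, 6 were lower and 0 higher in both MSC-EV comparisons. Vcan fell by 1.42 against PBS (adjusted p = 0.0251) and Ifitm6 by 1.11 (adjusted p = 0.0343), while Hp and Fn1 fell against HEK-EV by 0.99 (adjusted p = 0.0284) and 1.01 (adjusted p = 0.0308). That list summed to 7058 to 13999 TPM in PBS, 8934 to 11335 TPM in HEK-EV and 4403 to 5386 TPM in MSC-EV. In bulk samples fewer cells of a type and less RNA per cell cannot be told apart, and the part of these monocyte genes in the Nr4a1, Cebpb and Irf5 differences was not tested.

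Of 21 immediate early genes, a class switched on within minutes of a signal, 10 were lower and 1 higher in MSC-EV than in PBS, and 5 were lower and 1 higher than in HEK-EV. Fos fell by 1.11 on the log2 scale against PBS (1439 ± 164 to 671 ± 146 TPM, adjusted p = 0.0151), Atf3 by 0.70 (adjusted p = 0.0139) and Jund by 0.61 (adjusted p = 0.0213). Atf3 stood at 459 ± 64.8 TPM in HEK-EV and 439 ± 17.3 TPM in MSC-EV (-0.06, adjusted p = 0.777). In HEK-EV against PBS 0 were called, 14 of the 21 were below 0 and 8 had an unadjusted p under 0.05 in limma, with a median of -0.20. The list, which holds Nr4a1, had a median of -0.55 in MSC-EV against PBS and -0.40 against HEK-EV, and its summed level was 9278 to 10679 TPM in PBS, 7739 to 10203 TPM in HEK-EV and 6151 to 7388 TPM in MSC-EV. The part of this class in the Nr4a1 difference was not tested.

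Macrophage surface and lysosome genes gave calls in both directions. Of 18 pan-macrophage genes, 2 were higher and 1 lower in MSC-EV than in PBS, and 3 higher and 1 lower than in HEK-EV. Lgals3 (galectin-3) rose by 0.59 against PBS (1579 ± 299.6 to 2356 ± 284 TPM, adjusted p = 0.039) and Trem2, a lipid receptor, by 0.54 (344 ± 63.2 to 498 ± 34.2 TPM, adjusted p = 0.038). Cd68 was higher than in HEK-EV by 0.33 (adjusted p = 0.0443). Adgre5 (CD97), a relative of Adgre1, fell by 0.45 against PBS (621 ± 68.0 to 454 ± 27.4 TPM, adjusted p = 0.0255). Their list medians, 0.08 and 0.01, were near those of all genes.

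**Figure D4:**
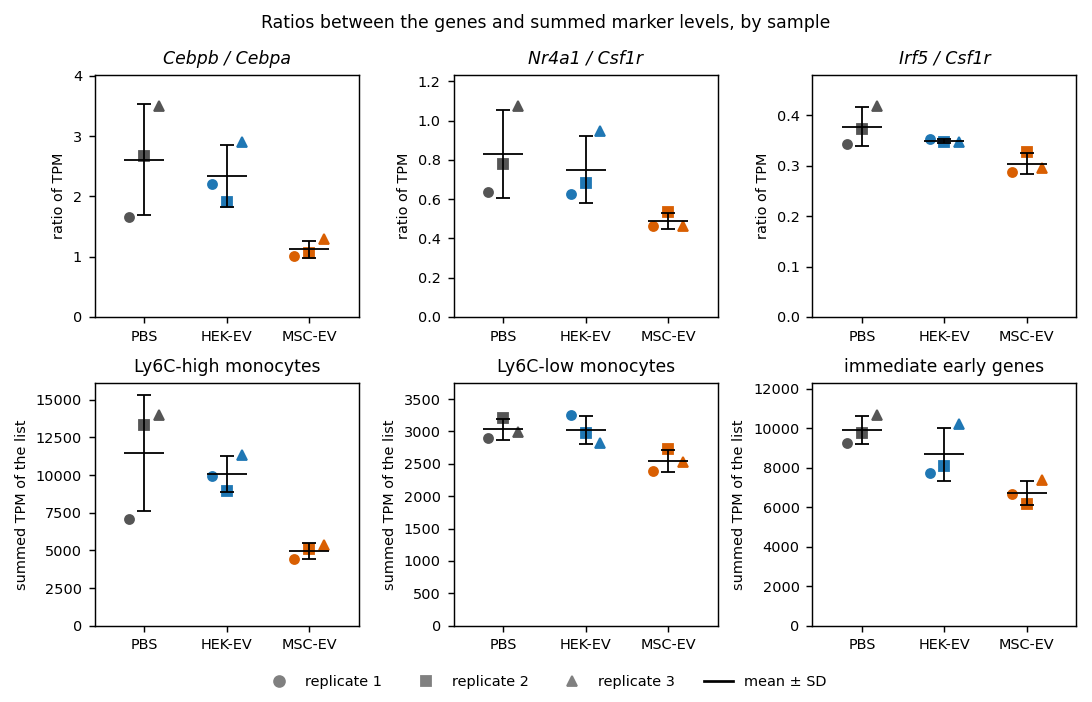
Ratios of TPM between the genes and summed TPM of marker lists (vertical axes, from 0) by group (horizontal axes), with 1 point per sample, a mean bar and SD whiskers. The ratio of Cebpb to Cebpa lies between 1.01 and 1.29 in MSC-EV and at 1.65 or above elsewhere, and the Ly6C-high monocyte sum reaches 5386 TPM in MSC-EV against at least 7058 TPM elsewhere.

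As a check of the sorted cells, Itgam measured 329.8 ± 44.3 TPM in PBS, 372 ± 54.1 TPM in HEK-EV and 229 ± 29.6 TPM in MSC-EV, and Ptprc (CD45) 585 ± 65.9, 614 ± 49.5 and 424 ± 4.85 TPM. Ptprc fell in MSC-EV against PBS by 0.46 (adjusted p = 0.0271), and Itgam fell against HEK-EV by 0.70 (adjusted p = 0.0257). Hepatocyte transcripts summed to 281 to 356 TPM in PBS, 212 to 368 TPM in HEK-EV and 449 to 577 TPM in MSC-EV, with 1 of 9 called higher against PBS (Apoa1, 0.72, adjusted p = 0.0381) and 4 of 9 against HEK-EV (among them Alb, Ahsg and Hpx). Biliary genes were higher in 3 of 6 in both MSC-EV comparisons (Epcam, Krt19 and Sox9). Neutrophil genes summed to 3117 to 5737, 5126 to 7038 and 3042 to 3844 TPM, and 8 of 11 were below 0 in both MSC-EV comparisons, with medians of -0.17 against PBS and -0.52 against HEK-EV and 10 of 11 at an unadjusted p under 0.05 against HEK-EV in limma. After adjustment Ltf was higher in both MSC-EV comparisons and Csf3r lower against HEK-EV. Kupffer cell genes summed to 3135 to 3808 TPM in PBS, 2241 to 4411 TPM in HEK-EV and 1816 to 3122 TPM in MSC-EV, with 9 of 10 below 0 against PBS and a median of -0.50. Endothelial and stellate genes summed to 315 to 401 TPM in PBS, 215 to 458 TPM in HEK-EV and 142 to 274 TPM in MSC-EV, with a median of -0.76 against PBS and 7 of 10 at an unadjusted p under 0.05 in limma. Both sums were lower in MSC-EV than in PBS with no overlap, and both overlapped between MSC-EV and HEK-EV. Gene by gene the HEK-EV comparison was similar. Against HEK-EV 9 of 10 Kupffer cell genes were below 0 (median -0.45), as were 7 of 10 endothelial and stellate genes (median -0.62). After adjustment none of the 10 Kupffer cell, 10 endothelial and stellate, 10 dendritic cell, 3 lymphocyte and 10 acinar genes tested was called. Every gene found from these lists was above 0 in at least 1 sample. The part of these cells in the differences of the 9 genes was not tested.

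Sample by sample, pancreatic acinar transcripts reached a summed 2772 TPM in MSC-EV replicate 3, 971 TPM in HEK-EV replicate 2, 129.7 TPM in MSC-EV replicate 1 and 34.7 TPM in HEK-EV replicate 1, and between 11.5 and 14.1 TPM in the 5 others, which include all PBS samples. With the presence of these transcripts as a term, Nr4a1 stood at -0.63 (adjusted p = 0.134), Cebpb at -0.47 (adjusted p = 0.136) and Irf5 at -0.40 (adjusted p = 0.106) in MSC-EV against PBS, so that 0 of the 9 genes were called, beside 21 of all 13820 genes. In MSC-EV against HEK-EV the same term left Nr4a1 (adjusted p = 0.0352) and Irf5 (adjusted p = 0.0396) called and Cebpa not (adjusted p = 0.0536), beside 550 of all genes. PBS replicate 1, the PBS sample nearest to MSC-EV in Nr4a1, Cebpa and Cebpb, also had the lowest ratio of coverage to FPKM (5.28, a measure of depth, against 6.06 to 6.84 in the others) and the lowest Ly6C-high sum of its group (7058 TPM). The ratio was 6.58 to 6.84 in MSC-EV, above all other samples, and mitochondrially encoded transcripts took 7.55% to 7.90% of TPM there against 5.44% to 6.48% elsewhere. Genes with at least 1 TPM numbered 13130 to 13633 per sample. Across genes, samples of a group correlated at r = 0.980 to 0.993 and samples of different groups at 0.973 to 0.992. MSC-EV replicate 3 correlated at 0.990 with HEK-EV replicate 2, and at 0.988 and 0.980 with MSC-EV replicates 1 and 2.

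The calls over the whole table, those of the 9 genes among them, rest on few samples. Without PBS replicate 2, PBS replicate 3, MSC-EV replicate 1 or MSC-EV replicate 2, 0 of the 9 genes were called against PBS, beside 5, 7, 23 and 54 of all genes in place of 706. Without PBS replicate 1, 6 of the 9 and 1881 of all genes were called. Against HEK-EV 0 were called without any 1 of the HEK-EV samples, MSC-EV replicate 1 or MSC-EV replicate 2, beside 0 to 31 of all genes in place of 817. Without PBS replicate 1, 5 of the 9 and 1384 of all genes were called. The fold changes moved less than the calls: over 22 other settings Nr4a1 ranged from -1.17 to -0.63 against PBS and passed the threshold in 14, Cebpb from -0.73 to -0.43 with 13, and Irf5 from -0.46 to -0.24 with 13. Cebpa ranged from 0.62 to 0.93 against HEK-EV and passed in 12. Against PBS it ranged from 0.46 to 1.10 and passed in 5.

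**Figure D5:**
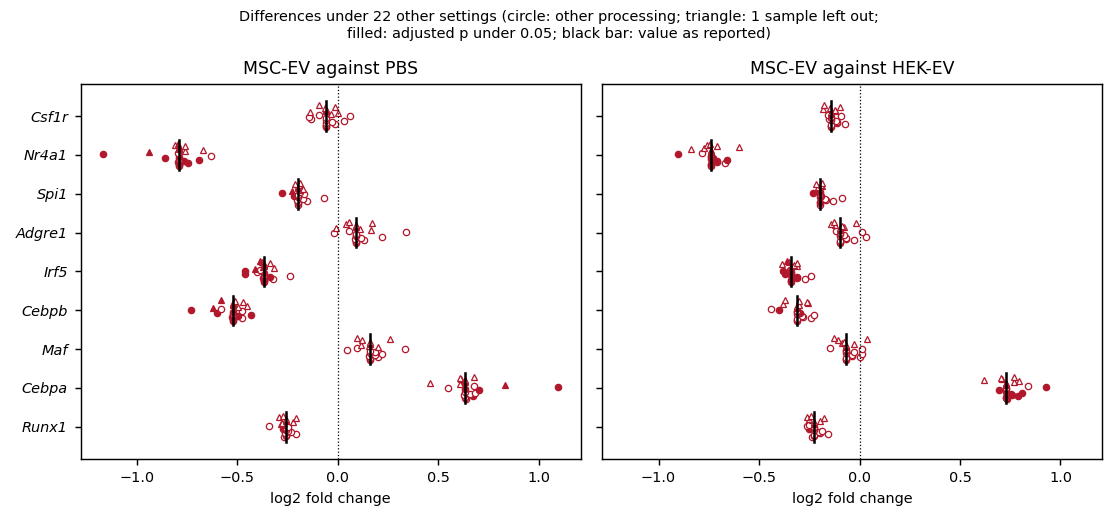
Log2 fold change (horizontal axes) of the 9 genes in MSC-EV against PBS and MSC-EV against HEK-EV (panels) under 22 other settings, with circles for other processing, triangles for 1 sample left out, filled marks for an adjusted p under 0.05 and a black bar for the value as reported. The marks of Nr4a1 stay between -1.17 and -0.63 in MSC-EV against PBS, and those of Csf1r lie on both sides of 0.

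By likeness of pattern over the 9 samples, measured as the root mean square difference of centred log2 levels among 9625 genes with a mean of at least 5 TPM, the nearest gene to Irf5 was Ikbkb (0.0389), followed by Nfatc1 (0.0393) and Otulinl (0.0425). Nearest to Nr4a1 were AA414768 (0.0857), Vcl (0.0903) and Pilrb2 (0.0934), beside its own spread of 0.401. For Cebpa they were Oxct1 (0.0595), Mdk (0.0937) and Gas2l3 (0.0966), and for Cebpb Sap30 (0.0363), Trim16 (0.0688) and Polb (0.0712). Spi1 was nearest to Dhdds (0.0233) and G6pdx (0.0303), and Runx1 to Rpia (0.0354), Tpst2 (0.0356) and Inpp1 (0.0390). Csf1r was nearest to Zfp740 (0.0313), Sprtn (0.0342) and Man1a2 (0.0364), Maf to Bmp2k (0.0436), Atp9b (0.0562) and Mob3c (0.0567), and Adgre1 to Abl1 (0.0450), Kbtbd4 (0.0511) and Anapc1 (0.0520). Among the 9 genes themselves the closest pairs were Spi1 with Runx1 (0.0575) and Maf with Adgre1 (0.0647). These distances share the same libraries and are descriptions without a test.

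In the files' coordinates (mm10) the genes lie at chr18:61105572-61131139 (Csf1r, Entrez Gene 12978, plus strand), chr2:91082368-91115759 (Spi1, 20375, plus), chr7:35119293-35121928 (Cebpa, 12606, plus), chr2:167688915-167690432 (Cebpb, 12608, plus), chr8:115703253-115706894 (Maf, 17132, minus), chr15:101253902-101274795 (Nr4a1, 15370, plus), chr16:92601466-92826074 (Runx1, 12394, minus), chr17:57358581-57483529 (Adgre1, 13733, plus) and chr6:29526130-29541869 (Irf5, 27056, plus). The mean coverage behind them ran from 58.9 in the lowest Runx1 sample to 3005 in the highest Csf1r sample. Other genes that overlap Csf1r, Runx1 or Adgre1 reached at most 1.97 TPM.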

How the data were processed

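Bulk RNA-seq of CD11b+ liver cells in 9 samples, 3 per group, was read from 1 table per sample. The library kit was TruSeq Stranded mRNA (labels' protocols). HISAT2 2.1.0, StringTie and build mm10 are named in the submitters' processing notes. The annotation and the strand setting are not given in the sources used here. The tables hold mean read coverage per gene, FPKM and TPM, per the file headers; the deposited TPM total 1000000 per sample. FPKM as deposited by the authors served as an alternative and, with the coverage signal, per the file headers, as a measure of depth; the most frequent ratio of coverage to FPKM held for 31.4% to 33.2% of genes above 1 FPKM. No read counts were used here, so no counting interval was computed.

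Gene IDs were matched to symbols in the RefSeq table of GRCm38.p6 (45679 of 45777, 99.79%; same start and end for 96.4%), and rows were summed per gene. The 13820 genes that reached 1 TPM in 3 or more samples were tested as log2(TPM + 1) in limma 3.58.1 (R 4.3.3; lmFit, contrasts.fit, eBayes with a trend) in a single fit of the 9 samples without covariates. Tests were two-sided, adjusted by Benjamini-Hochberg over all genes tested, with a threshold of 0.05. An exact permutation test of 3 against 3 cannot go below p = 0.1 and was not used. In 5 data sets simulated for MSC-EV against PBS over 13820 genes with 200 changed, 92.4% of 2-fold and 98.6% of 4-fold changes were recovered and 5.22% of calls were false. The simulated noise was independent between genes and no change under 2-fold was simulated. These rates therefore do not cover the smaller differences of the 9 genes or spread that genes share within a sample.

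The members, lists, naming rule and alternatives were chosen with earlier results of these data known. The rule named the 9 genes, up to 4 genes of smallest p per list among those past the threshold in an MSC-EV comparison, or up to 2 where none passed, and the 3 genes most like each of the 9. Relatives of a factor (Nr4a2, Nr4a3, Runx2, Cbfb, Cebpd, Cebpe, Cebpg) and Csf1 and Il34 fall outside it. Some genes that the rule names are not reported here. Alternatives were another pseudocount, 2 other filters, FPKM, 3 scalings, fitting only the samples compared, array weights, a replicate block, an acinar term, depth as a covariate and leaving out samples. Promoters are the 250 bases before RefSeq start sites.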

Additional observations from a re-analysis of the deposited data

How the results depend on the processing

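Over 27 gene results and 22 alternatives, 490 values kept direction and side of the threshold, 55 lost and 19 gained a call in the same direction, and 30 changed sign, none of these past the threshold. Against PBS, 3 of the 9 genes were called in MSC-EV; the number was 1 with no filter on low values, 0 with only the 6 samples compared, 6 with array weights, 0 with the acinar term, 5 with depth as a covariate, 0 with the 2 samples highest in acinar transcripts left out (chosen after seeing the data), and 0 to 6 with 1 sample left out. Against HEK-EV (3 called) it was 1 with no filter, 1 with FPKM, 1 with median-of-ratios scaling, 6 with array weights, 5 with depth as a covariate, 0 with those 2 samples left out and 0 to 5 with 1 sample left out. The cause was not tested, except that the first fits more genes and others fewer samples. HEK-EV against PBS gave 0 of the 9 genes in every alternative, and among all genes 4 with no filter and 0 to 2 with 1 sample left out.

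Genes called over the whole table in MSC-EV against PBS (706) were 361 with no filter, 77 with only the 6 samples, 4163 with array weights, 21 with the acinar term, 1340 with depth, 0 with the 2 samples left out (2711 at an unadjusted p under 0.05), and 5 to 1881 with 1 sample left out. Against HEK-EV (817) they were 387 with no filter, 436 with FPKM, 512 with median-of-ratios scaling, 2081 with weights, 1446 with depth, 0 with the 2 samples left out (2874 unadjusted) and 0 to 1384 with 1 left out. The split of 257 higher and 449 lower against PBS was 280 and 197 on FPKM and 288 and 322 with median-of-ratios scaling, and that of 209 and 608 against HEK-EV was 239 and 197, and 237 and 275.

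Sign changes on the log2 scale were as follows, with the range over 1 sample left out. In MSC-EV against PBS, Csf1r was 0.031 with quantile normalization, 0.059 with depth and -0.14 to 0.0027 with 1 left out, and Adgre1 -0.020 with the acinar term and -0.0073 to 0.17. In HEK-EV against PBS, Csf1r was -0.0012 with the acinar term, and Spi1 was -0.022 on FPKM, -0.033 with median-of-ratios scaling, -0.00028 without mitochondrial genes, -0.023 with weights, -0.044 with depth and -0.031 to 0.023 with 1 left out. Cebpa was 0.010 with weights, 0.17 with depth and -0.27 to 0.10, Nr4a1 0.11 with the acinar term and -0.20 to 0.070, Runx1 -0.062 to 0.0051, and Irf5 0.00054 with quantile normalization and -0.068 to 0.026. In MSC-EV against HEK-EV, Maf was 0.0017 on FPKM, 0.010 with quantile normalization, 0.012 with depth and -0.13 to 0.036, and Adgre1 0.032 with quantile normalization and 0.013 with depth.

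Whether the replicate numbers pair the samples was not settled. Deviations from the group means correlated at -0.499 to 0.058 between same-numbered samples and at -0.277 to 0.547 between differently numbered samples. Deviations from a mean of 3 samples are tied to each other, so these correlations cannot decide it. With a replicate block, 4, 0 and 3 of the 9 genes were called in MSC-EV against PBS, HEK-EV against PBS and MSC-EV against HEK-EV (404, 0 and 448 of all genes), the addition being Cebpa against PBS (0.63, adjusted p = 0.0408). No read counts were used, so the depth behind each value is known only in relative terms.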
